A study of Vitis vinifera with 36 samples.

Results

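The 6 genes annotated as dihydroflavonol reductase (DFR) in the study's list of flavonoid genes were examined in grape berries, out of 28441 genes listed in at least 1 library. They were taken by that annotation alone, and all 6 passed the filter on low counts that left 20183 genes for testing. RNA of deseeded berries (whole pericarp) was sequenced in 36 libraries, 3 for each of 12 conditions. The conditions were winter and summer berries of “Riesling”, a white cultivar, and of “CS” (Cabernet Sauvignon), a red cultivar, at the Eichhorn-Lorenz stages E-L 35, E-L 36 and E-L 38, which run from the onset of ripening to harvest. All vines were grafted onto SO4 rootstock and grew under a rain shelter in southern China. They were pruned and forced with hydrogen cyanamide before both crops, but not in the same way. For the summer crop the terminal bud was left unsprayed. For the winter crop the vines were defoliated by hand, and only the terminal bud and the area of the pruning wound were treated. Each library came from a sub-sample of many berries. Since the crops of a single year were sequenced, the season cannot be told apart from the way of forcing or from other conditions of those months.

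DFR reduces dihydroflavonols to leucoanthocyanidins with NADPH. The same dihydroflavonols are used by flavonol synthase (FLS) to make flavonols, so both enzymes compete for them. Leucoanthocyanidins are turned into anthocyanidins by leucoanthocyanidin dioxygenase (LDOX), which are glycosylated to coloured anthocyanins by UFGT, or are reduced to catechins by leucoanthocyanidin reductase (LAR), the building blocks of proanthocyanidins together with the epicatechins made by anthocyanidin reductase (ANR). White grapes lack functional MYBA regulators of UFGT and accumulate hardly any anthocyanin.

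The total of expected counts, the estimated number of reads assigned to genes, lay between 8367013 and 28686956 (median 10966200) per library, and 3 counts were worth 0.105 to 0.359 CPM (counts scaled to library size). The markers separated the cultivars as labelled. The summed FPKM (reads scaled to transcript length and library size) of UFGT and 6 flavonoid 3′5′-hydroxylase (F3′5′H) genes, which make the blue-red branch, was 7.66 to 24.3 in the 18 “Riesling” libraries and 41.8 to 516 in the 18 “CS” libraries. The summed FPKM of ANR, LAR1 and the regulator MYBPA2, which are abundant in seeds and green berries, was 2.54 to 9.32 in “Riesling” and 1.37 to 6.79 in “CS”, and MYBPA2 was at 0 in 22 of 36 libraries with at most 0.20 FPKM. One condition stood apart. A score of ripening was built from 148 genes that were higher and 624 genes that were lower at harvest than at the onset of ripening in the other 3 series, as the difference of their mean standardized expression. It was -0.55 ± 0.08 in the “Riesling” summer libraries labelled E-L 38 (SD, n = 3). At E-L 36 the score was -0.50 ± 0.10 in “Riesling” winter berries and 0.33 ± 0.33 in “Riesling” summer berries, without overlap, and 0.01 ± 0.07 in “CS” winter and 0.23 ± 0.05 in “CS” summer berries, again without overlap, so that the seasons compared there also differed in this score. It was 2.46 ± 0.14 in “Riesling” winter, 2.55 ± 0.12 in “CS” winter and 1.58 ± 0.17 in “CS” summer berries at E-L 38 (SD, n = 3 each). The genes of the score were chosen in these 3 series, so high values there, and part of the gap to “Riesling” summer berries, were built in. The seasons of “CS” did not overlap at E-L 38 either, with 2.44 to 2.68 in winter and 1.47 to 1.77 in summer berries. Results that rest on the 3 “Riesling” summer libraries labelled E-L 38 are given as against the summer libraries labelled E-L 38. A fit without them left the calls of the members in the other comparisons as they were, in 114 of 114 values. They enter those comparisons only through the shared filter, scaling and estimate of the spread. That fit therefore says nothing on the results that rest on them.

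The 6 genes lie on 5 chromosomes of genome 12X V2. VIT_218s0001g12800 (chromosome 18, 10907364 to 10910253, minus strand) has 6 exons and a coding sequence of 376 codons with the stop. VIT_219s0014g04980 (chromosome 19, 5318062 to 5327582, plus strand) has 7 exons and 403 codons. VIT_202s0025g01260 (chromosome 2, 1221630 to 1224048, plus strand) has 6 transcripts, and the longest codes for 188 codons. VIT_215s0048g01000 (chromosome 15, 15138938 to 15141017) and VIT_215s0048g01010 (chromosome 15, 15144577 to 15146363) stand in tandem on the minus strand, 3559 bases apart, with 243 codons in the longest transcript of the first and 314 in the second. VIT_216s0039g02350 (chromosome 16, 2505835 to 2506467, minus strand) is a short model of 461 transcript bases and 100 codons, 15 bases from the next model on the same strand, VIT_216s0039g02360, and 171132 bases from UFGT on the same chromosome. The short models hold fewer codons than the 376 of VIT_218s0001g12800, and whether they code for a complete enzyme was not tested.

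On the length-adjusted FPKM scale, VIT_218s0001g12800 and VIT_219s0014g04980 made up most of the DFR transcripts. VIT_218s0001g12800 ranged between 24.5 and 122 FPKM over the 36 libraries (median 40.3), and VIT_219s0014g04980 between 8.63 and 96.6 FPKM (median 41.2). The other 4 were lower, with medians of 9.92 FPKM for VIT_216s0039g02350, 7.40 FPKM for VIT_215s0048g01010, 6.43 FPKM for VIT_215s0048g01000 and 1.48 FPKM for VIT_202s0025g01260. The ratio of the highest to the lowest condition mean was 3.97 for VIT_218s0001g12800, 4.93 for VIT_215s0048g01010, 7.79 for VIT_219s0014g04980, 8.06 for VIT_216s0039g02350 and 27.7 for VIT_215s0048g01000. VIT_202s0025g01260 was listed in 31 of 36 libraries and had 3 counts or fewer in every library of 3 conditions, so no such ratio is given for it.

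**Figure D1:**
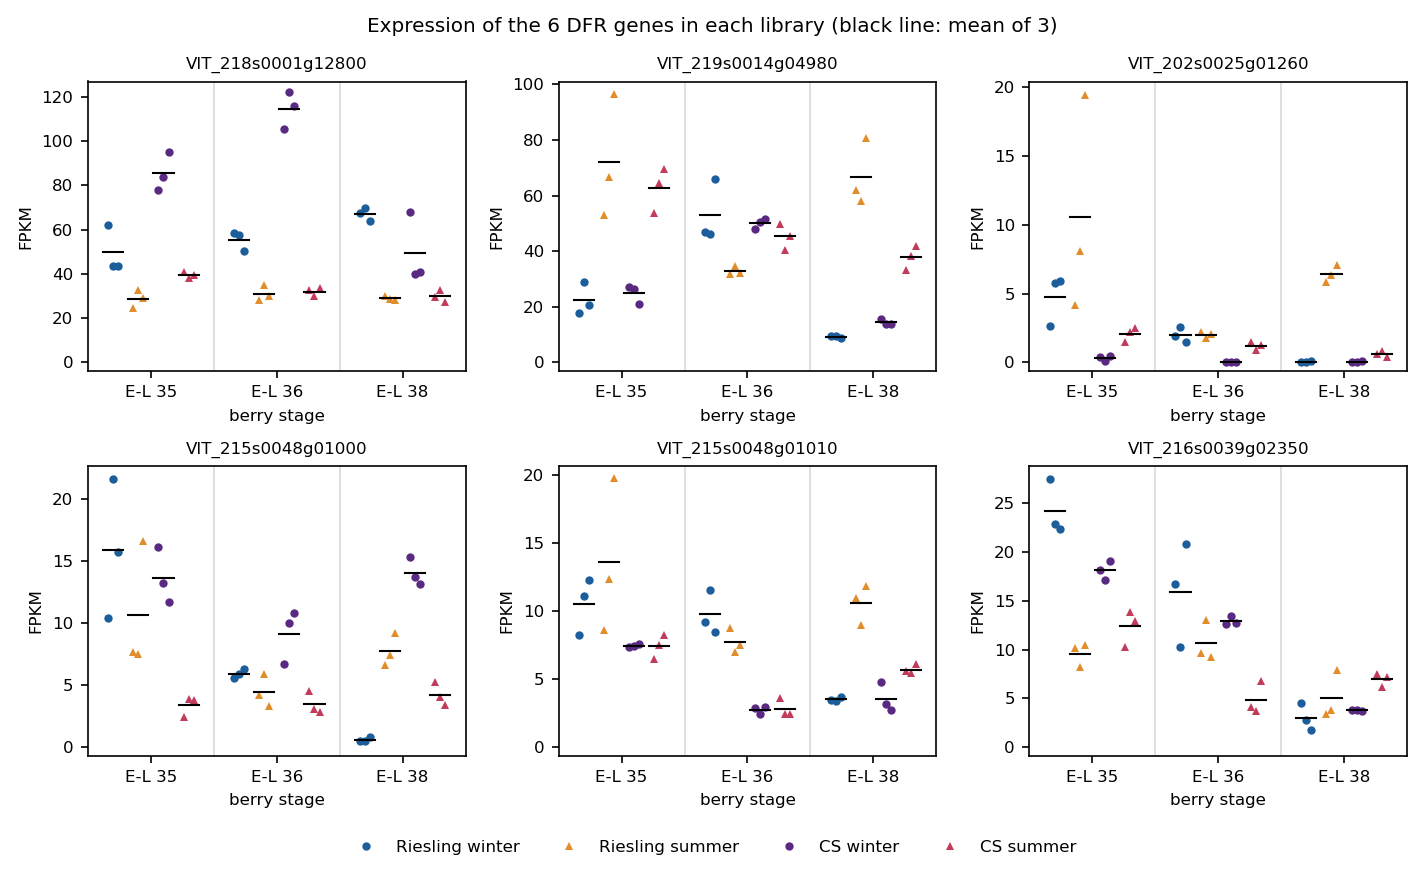
FPKM of each DFR gene (vertical axis, linear, its own scale in each panel) in each library at the 3 berry stages, with circles for winter and triangles for summer berries, “Riesling” left of “CS” and a black line at the mean of 3 libraries. VIT_218s0001g12800 lay higher in winter than in summer berries in 6 of 6 pairs, whereas VIT_202s0025g01260 was at or near 0 in the winter libraries of “CS” from E-L 36 on and of “Riesling” at E-L 38.

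The season was compared within each cultivar and stage, winter over summer, and the copies moved in both directions. Over the 6 comparisons, 18 of 36 values were called, 8 higher and 10 lower in winter berries, where a call needs an adjusted p not above 0.01 together with a 2-fold difference (edgeR quasi-likelihood test, Benjamini-Hochberg adjustment over 20183 genes). In “Riesling” 2 of 6 members were called at E-L 35 (1 higher, 1 lower), against 10.0% of all genes tested, 0 of 6 at E-L 36, against 7.13%, and 5 of 6 against the summer libraries labelled E-L 38 (1 higher, 4 lower), against 27.9%. At E-L 36 in “Riesling” 5 of the 6 had an unadjusted p under 0.05 in edgeR, as did 41.0% of all genes, and DESeq2 called 1. In “CS” 4 of 6 were called at E-L 35 (2 higher, 2 lower), against 10.4% of all genes, 4 of 6 at E-L 36 (3 higher, 1 lower), against 12.3%, and 3 of 6 at E-L 38 (1 higher, 2 lower), against 17.2%. The median log2 fold change of the 6 was 0.13, 0.66 and -2.17 in “Riesling” and 0.33, 0.92 and -0.84 in “CS” at the successive stages, and the median over all genes lay between -0.03 and 0.01. In these bulk samples fewer cells of a type and less RNA per cell cannot be told apart.

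**Figure D2:**
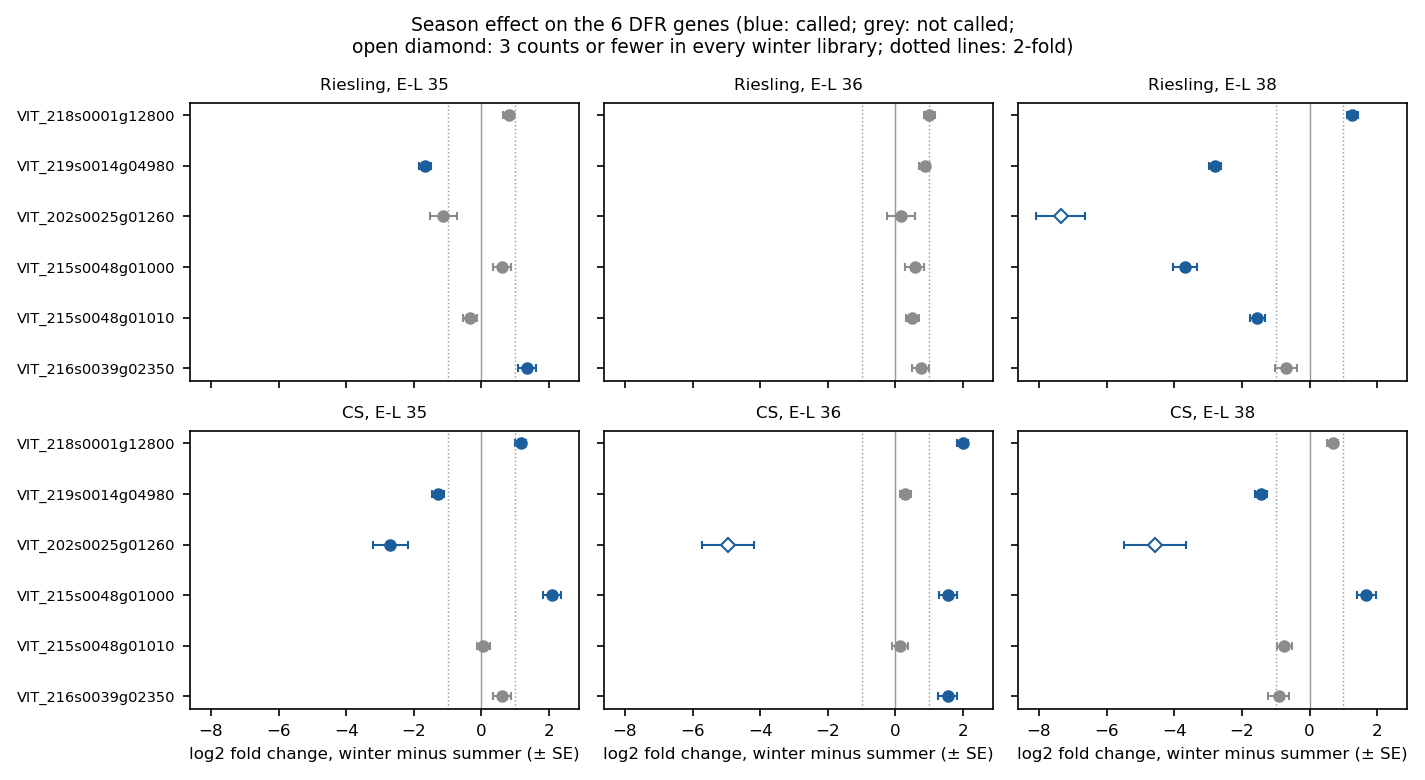
Log2 fold change of winter over summer berries with its SE for the 6 DFR genes (rows) in “Riesling” (top) and “CS” (bottom) at the 3 stages, blue where called and grey where not, with dotted lines at 2-fold. Open diamonds are fitted values of VIT_202s0025g01260 in conditions with 3 counts or fewer in every winter library, and VIT_218s0001g12800 lies right of 0 in all 6 panels.

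VIT_218s0001g12800 had the highest mean FPKM of the copies in each winter condition. In “Riesling” winter berries at E-L 36 this was narrow, with 55.5 against 53.1 FPKM for VIT_219s0014g04980, which was higher in replicate 3. VIT_218s0001g12800 was higher in winter than in summer berries of both cultivars at every stage, and no winter library overlapped with the summer libraries of its pair. In “CS” it had 78.1, 83.8 and 94.95 FPKM in winter berries at E-L 35, against 41.1, 38.3 and 39.4 FPKM in summer berries. At E-L 36 the values were 106, 122 and 116 FPKM in “CS” winter berries and 32.7, 29.9 and 33.6 FPKM in “CS” summer berries. Both differences were called in edgeR's quasi-likelihood test, with log2 fold changes of 1.16 ± 0.16 at the first of these stages (SE, adjusted p = 2.1e-06) and 1.98 ± 0.16 at the second (SE, adjusted p = 3.1e-10). At E-L 38 “CS” winter libraries had 67.8, 40.0 and 40.7 FPKM, replicate 1 being well above the other 2, and summer libraries 29.4, 32.6 and 27.4 FPKM. That difference, 0.68 ± 0.16 on the log2 scale (SE, edgeR adjusted p = 9.5e-04), stayed under the 2-fold limit.

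In “Riesling” VIT_218s0001g12800 had 62.1, 43.6 and 43.5 FPKM in winter berries at E-L 35, against 24.5, 32.8 and 29.2 FPKM in summer berries. It had 58.6, 57.6 and 50.2 FPKM in winter berries at E-L 36, against 28.4, 35.0 and 30.0 FPKM in summer berries. The log2 fold changes were 0.80 ± 0.16 at E-L 35 (SE, edgeR adjusted p = 2.9e-04) and 1.00 ± 0.16 at E-L 36 (SE, edgeR adjusted p = 3.0e-05), with fold changes of 1.74 and 1.995 that were under the limit. The value at E-L 36 was called without summer replicate 2 (1.12) or winter replicate 3 (1.07). Against the summer libraries labelled E-L 38, which had 30.1, 28.7 and 28.2 FPKM, the winter libraries had 67.6, 69.7 and 63.9 FPKM, a called log2 fold change of 1.26 ± 0.16 (SE, edgeR adjusted p = 1.3e-07). The order of the 12 conditions put the 6 winter conditions above the 6 summer conditions. CS winter E-L 36 (114 ± 8.33 FPKM), CS winter E-L 35 (85.6 ± 8.57 FPKM) and Riesling winter E-L 38 (67.1 ± 2.94 FPKM) were each separated from the next condition without overlap, whereas the other 3 winter conditions formed a chain of overlaps that ended with CS summer E-L 35 (39.6 ± 1.41 FPKM), and the 5 summer conditions below it each overlapped with the next (SD, n = 3 each). The summed FPKM of UFGT and the 6 F3′5′H genes moved in the same direction in “CS”, with 182 to 198 in winter against 75.9 to 105 in summer berries at E-L 35, 340 to 516 against 119 to 135 at E-L 36 and 167 to 308 against 41.8 to 137 at E-L 38. The seed and green berry markers ANR, LAR1 and MYBPA2 together were also higher in “CS” winter berries, without overlap, with 4.96 to 6.79 against 2.89 to 3.96 FPKM in summer berries at E-L 35 and 5.06 to 5.63 against 2.16 to 3.47 FPKM at E-L 36, whereas they overlapped at E-L 38. The part of either marker list in this result, or in those of VIT_215s0048g01000 and VIT_216s0039g02350 in “CS” described further on, was not tested.

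VIT_219s0014g04980 moved the other way at the first and last stages. In “Riesling” at E-L 35 it had 17.8, 28.8 and 20.7 FPKM in winter berries, against 53.01, 66.7 and 96.6 FPKM in summer berries. In “CS” at E-L 35 it had 27.1, 26.4 and 20.9 FPKM in winter berries, against 53.8, 64.7 and 69.5 FPKM in summer berries. The winter and summer libraries were apart in both cultivars, and the gene fell by 1.67 ± 0.17 on the log2 scale in “Riesling” (SE, edgeR adjusted p = 3.2e-08) and by 1.28 ± 0.17 in “CS” (SE, edgeR adjusted p = 1.5e-06). With the 6 libraries of the comparison fitted alone, the “Riesling” value at E-L 35 was -1.72 with an edgeR adjusted p of 0.0101, which just misses the limit. The highest of the summer values in “Riesling”, 96.6 FPKM, came from replicate 3, which was also the highest of the 3 replicates in 4 further members. At E-L 38 “CS” winter libraries had 15.6, 14.0 and 14.0 FPKM and summer libraries 33.1, 38.4 and 41.8 FPKM, a fall by 1.43 ± 0.18 on the log2 scale (SE, edgeR adjusted p = 1.4e-07). In “Riesling” the winter libraries at E-L 38 had 9.52, 9.63 and 8.63 FPKM, against 61.9, 57.9 and 80.5 FPKM in the summer libraries labelled E-L 38, a fall by 2.79 ± 0.19 (SE, edgeR adjusted p = 7.1e-13).

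At E-L 36 VIT_219s0014g04980 was not lower in winter berries. “Riesling” winter libraries had 46.9, 46.3 and 66.2 FPKM, all above the 31.8, 34.7 and 32.3 FPKM of the summer libraries, with a log2 fold change of 0.86 ± 0.17 (SE, edgeR adjusted p = 3.2e-04) that stayed under the 2-fold limit. The summed FPKM of ANR, LAR1 and MYBPA2 was also higher there, with 5.98 to 6.89 in winter against 4.74 to 5.23 in summer libraries. Its part in this result, or in that of VIT_218s0001g12800 in “Riesling” at this stage, was not tested. “CS” winter libraries had 47.9, 50.6 and 51.4 FPKM and overlapped with the 49.9, 40.5 and 45.6 FPKM of the summer libraries (log2 fold change 0.29 ± 0.17, SE, edgeR adjusted p = 0.18). In winter berries of both cultivars the gene therefore had its highest mean at E-L 36, 53.1 ± 11.3 FPKM in “Riesling” and 50.0 ± 1.85 FPKM in “CS”, and its lowest at E-L 38, 9.26 ± 0.55 and 14.5 ± 0.91 FPKM (SD, n = 3 each). Among the 12 conditions these last 2 were the lowest and did not overlap with each other or with the next, whereas the 8 highest conditions formed a chain in which each overlapped with its neighbour.

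The 2 main copies thus exchanged rank with the season. The ratio of VIT_218s0001g12800 to VIT_219s0014g04980, computed from FPKM in each library, was 2.88 to 4.54 in “CS” winter berries and 0.567 to 0.764 in “CS” summer berries at E-L 35. At E-L 36 it was 2.20 to 2.41 in “CS” winter and 0.655 to 0.739 in “CS” summer berries, and at E-L 38 it was 2.86 to 4.36 in winter and 0.656 to 0.890 in summer berries. The ratio was above 1 in all 9 winter libraries of “CS” and below 1 in all 9 summer libraries. In “Riesling” it was 1.51 to 3.48 in winter and 0.302 to 0.491 in summer berries at E-L 35, overlapped at E-L 36 with 0.760 to 1.25 in winter and 0.892 to 1.009 in summer berries, and was 7.10 to 7.41 in winter libraries at E-L 38, against 0.350 to 0.495 in the summer libraries labelled E-L 38. No test was run on the ratio, whose 2 genes were tested one by one.

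As a share of the summed FPKM of the 6 copies, VIT_218s0001g12800 held 57.0% ± 4.2, 60.5% ± 0.90 and 57.2% ± 5.2 in “CS” winter berries at the successive stages, against 31.3% ± 3.7, 35.8% ± 1.7 and 35.1% ± 2.9 in “CS” summer berries (SD, n = 3 each). In “Riesling” winter berries it held 39.0% ± 8.2, 39.3% ± 5.7 and 80.4% ± 1.2, against 20.7% ± 4.8, 35.0% ± 1.4 and 23.4% ± 3.4 in “Riesling” summer berries (SD, n = 3 each), the last from libraries labelled E-L 38. The total moved less uniformly than the shares. The summed FPKM was 189 ± 12.1 in “CS” winter and 89.7 ± 8.23 in “CS” summer berries at E-L 36, whereas at E-L 38 it was 85.4 ± 19.0 in “CS” winter and 85.1 ± 3.23 in “CS” summer berries (SD, n = 3 each), so that a similar total was made up of different copies. In “Riesling” the total was 142 ± 9.98 in winter and 88.9 ± 7.34 in summer berries at E-L 36, and 83.5 ± 3.99 in winter libraries at E-L 38, against 126 ± 16.9 in the summer libraries labelled E-L 38 (SD, n = 3 each).

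**Figure D3:**
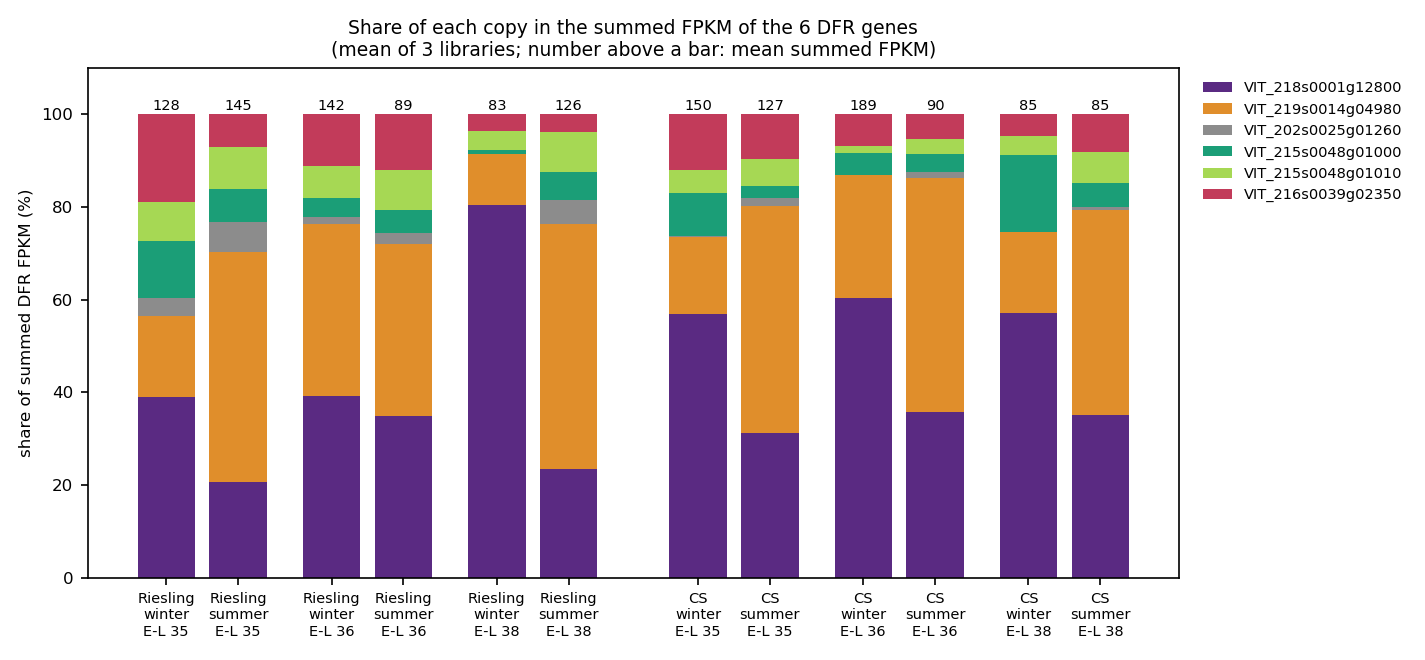
Share of each copy in the summed FPKM of the 6 DFR genes (vertical axis, percent, mean of 3 libraries) in the 12 conditions, winter left of summer within each cultivar and stage, with the mean summed FPKM above each bar. VIT_218s0001g12800 holds 57.0% to 60.5% of the sum in “CS” winter berries and 31.3% to 35.8% in “CS” summer berries.

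**Figure D4:**
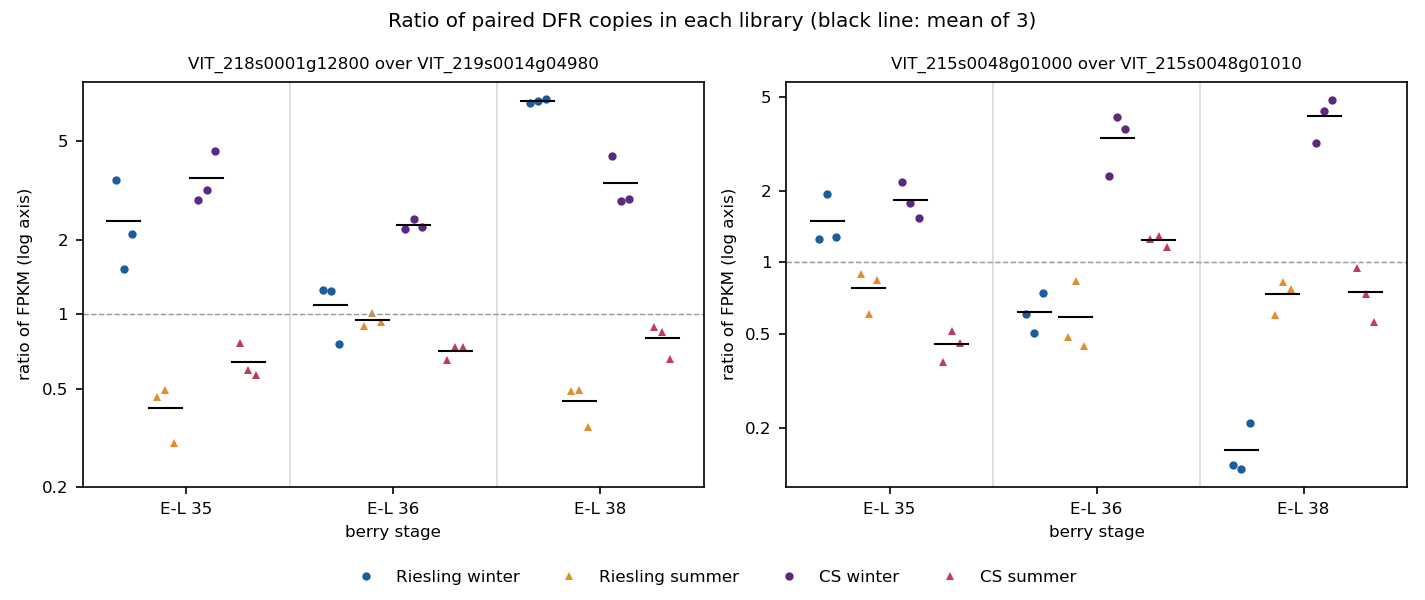
Ratio of FPKM on a log axis for VIT_218s0001g12800 over VIT_219s0014g04980 (left) and for the tandem copies VIT_215s0048g01000 over VIT_215s0048g01010 (right), with 1 point per library and a black line at the mean of 3. On the left the “CS” winter libraries (2.20 to 4.54) lie above and the “CS” summer libraries (0.567 to 0.890) below the dashed line at 1.

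VIT_202s0025g01260 was the least abundant copy and was at or near 0 in winter berries of “CS” from E-L 36 on. At E-L 35 it had 9, 2 and 10 counts in “CS” winter libraries (0.38, 0.10 and 0.43 FPKM), against 82, 52 and 150 counts in “CS” summer libraries (1.50, 2.23 and 2.47 FPKM), and fell by 2.69 ± 0.52 on the log2 scale (SE, edgeR adjusted p = 1.9e-04). At E-L 36 “CS” winter libraries had 0, 1 and 2 counts, against 34, 23 and 30 counts in summer libraries. At E-L 38 they had 0, 0 and 2 counts, against 12, 14 and 7 counts. Winter and summer libraries did not overlap at any of these stages. With so few counts the fitted fold change depends on the prior count, so the pooled CPM were compared: the gene was 38.1-fold lower in “CS” winter berries at E-L 36 (95% exact interval 12.6 to 189) and 28.6-fold lower at E-L 38 (7.31 to 246). These intervals cover counting error only. Both differences were called (edgeR adjusted p = 9.0e-06 and 1.6e-04), and the call at E-L 38 was not made by limma on log2(FPKM + 1), a scale on which such low values hardly differ (adjusted p = 0.075).

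In “Riesling” VIT_202s0025g01260 was more abundant and was not called for the season before E-L 38. At E-L 35 its mean was also lower in winter berries, and the interaction with the cultivar was not called (edgeR adjusted p = 0.17). At E-L 35 winter libraries had 2.68, 5.75 and 5.95 FPKM and overlapped with the 4.14, 8.07 and 19.5 FPKM of the summer libraries (log2 fold change -1.13 ± 0.40, SE, edgeR adjusted p = 0.025), and a call was made only without summer replicate 1 (-1.55). At E-L 36 they had 1.94, 2.60 and 1.47 FPKM, against 2.18, 1.76 and 2.03 FPKM in summer libraries (log2 fold change 0.17 ± 0.42, SE, edgeR adjusted p = 0.80). At E-L 38 winter libraries had 0, 0 and 2 counts, against 130, 135 and 162 counts in the summer libraries labelled E-L 38, which is 196-fold lower (95% exact interval 53.9 to 1623, edgeR adjusted p of the difference 1.1e-09). The summed FPKM of ANR, LAR1 and MYBPA2 was also lower there, with 2.54 to 3.03 in winter libraries at E-L 38 against 4.44 to 8.11 in the summer libraries so labelled, and its part in the result was not tested.

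The tandem copies on chromosome 15 shared reads. Each had a fractional expected count in 33 of 36 libraries, while their sum was whole within 0.02 counts in 36 of 36, so the fractions were divided between these 2 genes, and the other 4 members had no fractional count. The split between them is therefore an estimate. VIT_215s0048g01000 was the more responsive by this estimate: in “CS” it had 16.1, 13.2 and 11.7 FPKM in winter berries at E-L 35, against 2.46, 3.85 and 3.80 FPKM in summer berries. It rose at the 3 successive stages by 2.09 ± 0.27, 1.56 ± 0.28 and 1.67 ± 0.28 on the log2 scale (SE, edgeR adjusted p = 1.0e-06, 5.9e-05 and 1.2e-05), with no overlap between the seasons. The “CS” winter libraries had 6.66, 9.98 and 10.8 FPKM at E-L 36 and 15.3, 13.7 and 13.1 FPKM at E-L 38, against 4.52, 3.11 and 2.81 FPKM and 5.27, 4.02 and 3.42 FPKM in “CS” summer libraries.

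In “Riesling” VIT_215s0048g01000 had 10.4, 21.6 and 15.7 FPKM in winter and 7.68, 7.49 and 16.6 FPKM in summer berries at E-L 35, and 5.57, 5.85 and 6.28 FPKM in winter and 4.23, 5.85 and 3.32 FPKM in summer berries at E-L 36, with overlap at both stages and no call (edgeR adjusted p = 0.066 and 0.12). Without summer replicate 3 the value at E-L 35 was 1.03 and was called. At E-L 38 the winter libraries had 0.48, 0.46 and 0.78 FPKM, against 6.58, 7.44 and 9.21 FPKM in the summer libraries labelled E-L 38, a fall by 3.68 ± 0.36 on the log2 scale (SE, edgeR adjusted p = 1.1e-09). The winter “CS” berries of the same stage had the second highest mean of the 12 conditions for this gene, 14.0 ± 1.15 FPKM, and the winter “Riesling” berries the lowest, 0.57 ± 0.18 FPKM (SD, n = 3 each).

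VIT_215s0048g01010 was called for the season in 1 of 6 comparisons. Winter and summer libraries overlapped in both cultivars at the first and middle stages, with log2 fold changes between -0.34 and 0.50, none of them called. In “CS” at E-L 38 it had 4.82, 3.14 and 2.71 FPKM in winter and 5.56, 5.45 and 6.09 FPKM in summer berries, without overlap but under the 2-fold limit (log2 fold change -0.75 ± 0.22, SE, edgeR adjusted p = 0.0056). In “Riesling” the winter libraries at E-L 38 had 3.44, 3.40 and 3.70 FPKM, against 10.98, 9.0 and 11.87 FPKM in the summer libraries labelled E-L 38, a fall by 1.54 ± 0.22 (SE, edgeR adjusted p = 5.9e-07). When the counts of both copies were summed, which does not depend on the split, the pair rose in “CS” winter berries by 1.12 ± 0.21 and 1.14 ± 0.22 on the log2 scale at the first 2 stages (SE, edgeR adjusted p = 1.0e-04 and 1.2e-04). At E-L 38 the sum differed by 0.87 ± 0.21 (SE, edgeR adjusted p = 0.0012), under the limit, so the call of VIT_215s0048g01000 there depends on the split. In “Riesling” the sum fell by 2.19 ± 0.23 against the summer libraries labelled E-L 38 (edgeR adjusted p = 3.7e-09). The ratio of VIT_215s0048g01000 to VIT_215s0048g01010 was 3.18 to 4.84 in “CS” winter and 0.562 to 0.948 in “CS” summer libraries at E-L 38, and 0.135 to 0.211 in “Riesling” winter libraries at that stage, against 0.599 to 0.827 in the summer libraries so labelled.

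VIT_216s0039g02350, the short model near UFGT, was called higher in winter berries in 2 of the 6 comparisons. In “Riesling” at E-L 35 it had 27.5, 22.9 and 22.3 FPKM in winter and 10.1, 8.23 and 10.4 FPKM in summer berries, without overlap, and rose by 1.35 ± 0.27 on the log2 scale (SE, edgeR adjusted p = 2.1e-04), a call not made with the 6 libraries alone (edgeR adjusted p = 0.0117). In “CS” at E-L 36 it had 12.6, 13.4 and 12.7 FPKM in winter and 4.13, 3.74 and 6.79 FPKM in summer berries, and rose by 1.55 ± 0.28 (SE, edgeR adjusted p = 6.7e-05). In “CS” at E-L 35 the libraries were also apart, with 18.2, 17.2 and 19.1 FPKM in winter and 10.3, 13.9 and 13.0 FPKM in summer berries, but the difference of 0.61 ± 0.25 on the log2 scale was not called (SE, edgeR adjusted p = 0.059). At E-L 38 the direction was the opposite in “CS”, with 3.86, 3.83 and 3.73 FPKM in winter and 7.49, 6.21 and 7.23 FPKM in summer berries (log2 fold change -0.92 ± 0.30, SE, edgeR adjusted p = 0.012). In “Riesling” the winter and summer libraries overlapped at the last 2 stages, with 16.8, 10.3 and 20.8 FPKM in winter against 9.70, 13.1 and 9.20 FPKM in summer berries at E-L 36 and no call (edgeR adjusted p = 0.028). Without winter replicate 2 that value was 1.012 and was called. The gene had between 7 and 162 counts per library, 23 to 32 in the “CS” summer libraries at E-L 38. Its strand neighbour VIT_216s0039g02360, with 3.90 to 14.4 FPKM, followed it over the 12 conditions with a Pearson r of 0.93 of log2(mean FPKM + 1), a description over points that share libraries.

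Whether the season effect differed between the cultivars was tested with the interaction, “Riesling” minus “CS”, for which a call needs only the adjusted p not above 0.01. At E-L 35 it was called for 0 of 6 members, against 1.53% of all genes. There 2 of 6 had an unadjusted p under 0.05 in edgeR, as did 20.1% of all genes, and DESeq2 called 1, VIT_215s0048g01000, whose interaction of -1.48 ± 0.37 (SE, edgeR adjusted p = 0.019) was also called without “Riesling” summer replicate 1 (-1.69) or winter replicate 2 (-1.77). At E-L 36 it was called for 2 of 6, against 11.7%. The season effect of VIT_218s0001g12800 was smaller in “Riesling” than in “CS” by 0.99 ± 0.23 on the log2 scale (SE, interaction -0.99, edgeR adjusted p = 0.0022). For VIT_202s0025g01260 the interaction was 5.12 ± 0.91 (SE, edgeR adjusted p = 1.7e-04), a fitted value that rests on the 3 counts of “CS” winter berries and was not called by limma on log2(FPKM + 1) (adjusted p = 0.050). At E-L 38 it was called for 2 of 6, against 13.4%, and both rest on the “Riesling” summer libraries so labelled. VIT_215s0048g01000 had an interaction of -5.36 ± 0.46 (SE, edgeR adjusted p = 6.7e-09), and VIT_219s0014g04980 one of -1.36 ± 0.25 (SE, edgeR adjusted p = 2.5e-04). With the tandem copies summed, the interaction at E-L 38 was -3.06 ± 0.31 (SE, edgeR adjusted p = 1.4e-07). VIT_218s0001g12800 was called there only without “CS” winter replicate 1 (0.87).

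The cultivars were compared within each season and stage, “Riesling” over “CS”. In winter berries 1 of 6 was called at E-L 35, against 14.6% of all genes, 3 of 6 at E-L 36, against 13.6%, and 1 of 6 at E-L 38, against 12.1%. In summer berries 2 of 6 were called at E-L 35, against 11.6%, 1 of 6 at E-L 36, against 16.9%, and 1 of 6 in the libraries labelled E-L 38, against 19.1%. VIT_202s0025g01260 was higher in “Riesling” in 4 of these 6 comparisons, with log2 fold changes of 3.75 ± 0.52 in winter and 2.19 ± 0.41 in summer berries at E-L 35 (SE, edgeR adjusted p = 1.7e-06 and 1.1e-04) and of 3.35 ± 0.48 in the summer libraries labelled E-L 38 (edgeR adjusted p = 1.9e-06). In winter berries at E-L 36 it had 38, 61 and 36 counts in “Riesling” and 0, 1 and 2 counts in “CS”, which is 63.7-fold lower in “CS” (95% exact interval 21.3 to 313). At E-L 38 in winter both cultivars had at most 2 counts in a library, and no fold is given. In summer berries at E-L 35 the calls were not made with the 6 libraries alone, which gave adjusted p-values of 0.035 for VIT_202s0025g01260 and 0.025 for VIT_215s0048g01000 in edgeR.

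The other cultivar differences concerned 3 copies. VIT_215s0048g01010 was higher in “Riesling” at E-L 36, with 9.22, 11.6 and 8.44 FPKM in “Riesling” and 2.89, 2.43 and 2.95 FPKM in “CS” winter berries (log2 fold change 1.66 ± 0.22, SE, edgeR adjusted p = 6.4e-07). In summer berries at E-L 36 it had 8.76, 6.98 and 7.47 FPKM in “Riesling” and 3.59, 2.41 and 2.41 FPKM in “CS” (1.30 ± 0.22, SE, edgeR adjusted p = 1.9e-05), and the cultivars did not overlap in either season. These calls depend on the split between the tandem copies, since their sum differed by 0.12 in winter (edgeR adjusted p = 0.70) and by 0.73 in summer berries (edgeR adjusted p = 0.0067), neither called. VIT_215s0048g01000 was higher in “Riesling” summer berries at E-L 35 (1.52 ± 0.27, SE, edgeR adjusted p = 7.4e-05) and lower in “Riesling” winter berries at E-L 38 (-4.62 ± 0.36, SE, edgeR adjusted p = 5.6e-11). VIT_218s0001g12800 fell short of “CS” in “Riesling” winter berries at E-L 36, by 1.21 ± 0.16 on the log2 scale (log2 fold change -1.21, SE, edgeR adjusted p = 7.9e-07). VIT_219s0014g04980 and VIT_216s0039g02350 were called in none of the 6 cultivar comparisons, with log2 fold changes between -0.66 and 0.70 for the first and between -0.58 and 0.95 for the second. For VIT_216s0039g02350 a call in summer berries was made without 1 of 4 libraries: at E-L 36 “CS” replicate 3 (1.27) or “Riesling” replicate 1 (1.03) or 3 (1.05), and at E-L 38 “Riesling” replicate 3 (-1.08). VIT_218s0001g12800 was also called in winter berries at E-L 35 without “Riesling” replicate 1 (-1.17).

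Across stages the copies changed most in winter berries of “Riesling” between E-L 36 and E-L 38, where 5 of 6 members fell, against 18.9% of all genes called in either direction. VIT_219s0014g04980 fell by 2.54 ± 0.19, VIT_215s0048g01000 by 3.37 ± 0.37, VIT_215s0048g01010 by 1.49 ± 0.22 and VIT_216s0039g02350 by 2.41 ± 0.30 on the log2 scale (SE, edgeR adjusted p at most 2.0e-06), and VIT_202s0025g01260 had 2 counts in total at E-L 38, 60.1-fold below E-L 36 (95% exact interval 16.3 to 502). VIT_218s0001g12800 was the exception, with 67.1 ± 2.94 FPKM at E-L 38 and 55.5 ± 4.58 FPKM at E-L 36 (SD, n = 3 each, edgeR adjusted p = 0.18). In “CS” winter berries 3 of 6 fell over the same interval, against 15.9%: VIT_218s0001g12800 by 1.38 ± 0.16, VIT_219s0014g04980 by 1.95 ± 0.18 and VIT_216s0039g02350 by 1.92 ± 0.28 (SE, edgeR adjusted p at most 2.4e-06).

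Between E-L 35 and the end of veraison (E-L 36), VIT_219s0014g04980 rose in winter berries of both cultivars, by 1.41 ± 0.17 in “Riesling” (SE, edgeR adjusted p = 4.4e-07) and by 1.17 ± 0.17 in “CS” (SE, edgeR adjusted p = 4.9e-06), whereas in “Riesling” summer berries it fell by 1.12 ± 0.17 (SE, edgeR adjusted p = 9.1e-06). In “Riesling” winter berries 2 of 6 members were called at this step, against 10.1% of all genes, the other being VIT_215s0048g01000, which fell by 1.26 ± 0.27 and whose call was lost without replicate 2 at E-L 35 (-0.97) and with the tandem copies summed (-0.65). In “CS” winter berries 2 of 6 were called, against 9.39%, the other being VIT_215s0048g01010, which fell by 1.27 ± 0.22 (SE, edgeR adjusted p = 3.8e-05), and VIT_202s0025g01260 was called without replicate 2 at E-L 35, a fitted value that rests on 3 counts. The sum of the tandem copies was not called in “CS” winter berries at this step (-0.62). In “Riesling” summer berries 3 of 6 were called, all lower, against 10.2%. Besides VIT_219s0014g04980 these were VIT_202s0025g01260, which fell by 2.38 ± 0.41, and VIT_215s0048g01000, which fell by 1.22 ± 0.27 (SE, edgeR adjusted p at most 7.5e-04). Without replicate 3 of the “Riesling” summer libraries at E-L 35, VIT_219s0014g04980 (-0.90) and VIT_215s0048g01000 (-0.80) were no longer called. With the 6 libraries alone, none of the 3 was, and the sum of the tandem copies (-0.98) stayed under the 2-fold limit. VIT_215s0048g01010 was called as well without replicate 1 at E-L 35 (-1.05).

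In “CS” summer berries, at the first step (E-L 36 over E-L 35), 2 of 6 fell, against 6.51% of all genes: VIT_215s0048g01010 by 1.35 ± 0.22 and VIT_216s0039g02350 by 1.27 ± 0.28 (SE, edgeR adjusted p = 5.0e-05 and 0.0013), the second called in 4 of the 6 fits that left out 1 library, and not without replicate 1 (-1.18) or 2 (-1.13) at E-L 36. At the next step (E-L 38 over E-L 36), 1 of 6 was called, against 2.41%: VIT_215s0048g01010 rose by 1.07 ± 0.23 (SE, edgeR adjusted p = 0.0024), and its call held in 3 of the 6 fits, not without replicate 2 (1.00) or 3 (0.99) at E-L 36 or replicate 3 at E-L 38 (1.02). The sum of the tandem copies was not called at either step (-0.65 and 0.66). In the “Riesling” summer libraries labelled E-L 38, 2 of 6 were called against E-L 36, both higher, against 11.9%. VIT_202s0025g01260 rose by 1.79 ± 0.41 and VIT_219s0014g04980 by 1.11 ± 0.17 (SE, edgeR adjusted p = 8.8e-04 and 7.3e-06), and the second was not called without replicate 3 of these libraries (0.96). VIT_216s0039g02350 was called lower without replicate 1 (-1.06) or 3 (-1.08) at E-L 36 or replicate 3 of the libraries labelled E-L 38 (-1.47), and VIT_215s0048g01000 higher without replicate 2 at E-L 36 (1.14).

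The genes before and after DFR in the pathway were counted in the same fit, in which 10.4%, 12.3% and 17.2% of all genes were called in “CS” at the successive stages and 10.0%, 7.13% and 27.9% in “Riesling”. Of 13 genes that supply dihydroflavonols (flavanone 3-hydroxylase F3H, F3′H and F3′5′H), 6 higher and 0 lower were called in winter berries of “CS” at E-L 35, 8 higher and 2 lower at E-L 36, and 4 higher and 1 lower at E-L 38. In winter berries of “Riesling” 3 higher and 1 lower were called at each of the first 2 stages, and 1 higher and 2 lower against the summer libraries labelled E-L 38. Of 9 genes beside or after DFR (FLS, LDOX, LAR, ANR and UFGT), 1 higher and 1 lower were called in “CS” at the first and last stages, and 4 higher and 2 lower at E-L 36. In “Riesling” 1 higher and 2 lower were called at the first and last stages, and 2 higher and 1 lower at E-L 36. Of 14 regulators, 13 passed the filter, of which 3 higher and 1 lower, 6 higher and 0 lower, and 2 higher and 2 lower were called in “CS” at the successive stages. In “Riesling” these counts were 1 higher and 1 lower, 3 higher and 0 lower, and 4 higher and 1 lower. Between the cultivars at E-L 36 in winter berries, 2 of 13 supply genes were higher and 8 lower in “Riesling”, with a median log2 fold change of -5.74. Of the 6 DFR copies 2 were higher and 1 lower there, with a median of 0.04, and 13.6% of all genes were called, with a median of -0.01. The supply genes include the 6 F3′5′H genes that already served as markers of the coloured cultivar. Their part in the median of -5.74 was not tested. These counts and medians are descriptions, and no test was run between the lists.

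LDOX VIT_202s0025g04720, which acts directly after DFR on the way to anthocyanidins, had 281 ± 30.5 FPKM in “CS” winter and 89.6 ± 10.1 FPKM in “CS” summer berries at E-L 36, and 32.5 ± 1.51 FPKM in “Riesling” winter and 13.9 ± 5.90 FPKM in “Riesling” summer berries (SD, n = 3 each). UFGT VIT_216s0039g02230 had 123 ± 6.77 FPKM in “CS” winter and 53.1 ± 4.66 FPKM in “CS” summer berries at that stage, against 9.47 ± 0.74 FPKM in “Riesling” winter and 7.79 ± 0.19 FPKM in “Riesling” summer berries (SD, n = 3 each). In “CS” at E-L 36 LDOX VIT_202s0025g04720 rose by 1.79 ± 0.25 and UFGT by 1.36 ± 0.17 on the log2 scale, beside 1.98 ± 0.16 for VIT_218s0001g12800 (SE). This LDOX copy also rose in “Riesling” at that stage, by 1.38 ± 0.25 (SE, edgeR adjusted p = 1.6e-04). The paper names the other LDOX copy, VIT_208s0105g00380, among late pathway genes that were significantly lower in winter berries at some stages. MYBPA1 VIT_215s0046g00170, a regulator of proanthocyanidin genes, fell in the 4 comparisons in which VIT_219s0014g04980 fell: by 1.15 ± 0.34 in “Riesling” and 1.48 ± 0.34 in “CS” at E-L 35, by 2.58 ± 0.45 against the “Riesling” summer libraries labelled E-L 38 and by 1.97 ± 0.35 in “CS” at E-L 38 (SE, edgeR adjusted p = 0.0080, 9.9e-04, 1.4e-05 and 3.0e-05). At E-L 36 it had log2 fold changes of 1.09 ± 0.35 in “Riesling” and 0.12 ± 0.32 in “CS” (SE, edgeR adjusted p = 0.018 and 0.81), neither called.

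Over the 12 condition means of log2(FPKM + 1), the 15 pairs of members had a Pearson r between -0.63 and 0.83, 12 positive and 3 negative. All 3 negative pairs held VIT_218s0001g12800, with -0.63 for VIT_202s0025g01260, -0.41 for VIT_215s0048g01010 and -0.38 for VIT_219s0014g04980. The highest was that of VIT_202s0025g01260 with VIT_215s0048g01010 (0.83), while the tandem copies had 0.36 with each other. With LDOX VIT_202s0025g04720, VIT_218s0001g12800 had 0.63 and VIT_202s0025g01260 had -0.74. With the other LDOX copy, VIT_208s0105g00380, they had -0.09 and -0.22. The paper describes MYBPA1 expression as well correlated with VIT_219s0014g04980 and VIT_202s0025g01260. Here, with MYBPA1 VIT_215s0046g00170, VIT_219s0014g04980 had 0.78 and VIT_202s0025g01260 had 0.34. The other members lay between -0.28 (VIT_218s0001g12800) and 0.34 (VIT_216s0039g02350). These values describe 12 points that share cultivars, seasons and libraries.

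The 3 genes of most similar profile to each member were taken from 19135 genes with a mean of at least 1 FPKM in some condition, by the same Pearson r over 12 conditions. For VIT_218s0001g12800 they were VIT_200s0256g00050 (0.98), VIT_200s1321g00010 (0.97) and VIT_212s0059g00640 (0.92), which were also the first 3 over the 36 libraries. For VIT_219s0014g04980 they were VIT_201s0127g00380 (0.98), VIT_213s0064g00580 (0.98) and VIT_200s0211g00050 (0.95). For VIT_202s0025g01260 they were VIT_202s0012g01420 (0.99), VIT_206s0004g03220 (0.99) and VIT_201s0026g00520 (0.98). The lowest values were those of VIT_215s0048g01000 with VIT_201s0011g03850, VIT_214s0068g01490 and VIT_213s0084g00130 (0.86, 0.86 and 0.85), and VIT_215s0048g01010 had VIT_219s0014g00700, VIT_212s0059g00220 and VIT_219s0015g02610 (0.94 each). For VIT_216s0039g02350 they were VIT_203s0017g02170 (0.97), VIT_200s0353g00060 (0.95) and VIT_216s0039g02370 (0.94), and the adjacent VIT_216s0039g02360 was at rank 6 of the 19135. None of these genes is in the study's lists of named genes.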

How the data were processed

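Per the paper, 50-base single reads of an Illumina HiSeq were aligned to the grapevine genome 12X V2 with no more than 2 mismatches, and Bowtie is named in the submitters' processing notes. Per gene, the files deposited by the authors give an expected count, the estimated number of reads without normalization, and an FPKM value, which the authors scaled by transcript length and by library size. For VIT_202s0025g01260 and VIT_215s0048g01000 the deposited lengths varied between libraries and were below that of the longest transcript. The counting program, the strand setting and the Bowtie version are not given in the sources used here. A series table with 36 numbered columns was not used, since the numbers match no label. No gene matched the reference table of names (0 of 28441), so annotations are those of the study, and sequences were not used here.

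Expected counts were rounded, filtered with filterByExpr (20183 genes kept), scaled with TMM and tested in 1 quasi-likelihood fit of 12 conditions (edgeR 4.0.16, R 4.3.3, with limma 3.58.1 and DESeq2 1.42.0 as alternatives). P-values were adjusted after Benjamini and Hochberg over all genes tested, and the SE is the log2 fold change divided by the square root of F. Likeness was computed in Python 3.11.15. The text names all 6 members in each comparison, the 3 most similar genes of each, and LDOX, UFGT and MYBPA1. The members and lists were chosen with earlier results of these data known. No 2 replicate libraries agreed within sampling noise (chi-square per degree of freedom at least 1.52 in 36 pairs). Same-numbered libraries deviated together, with every r above 0.1, only for “Riesling” summer E-L 36 over E-L 35 (0.15, 0.10 and 0.25), and no label ties a number to a shared plant or day. The edgeR season test was also run on simulated counts with the same spread for all genes and conditions. The real replicate pairs varied more unevenly (chi-square per degree of freedom 1.52 to 87.0), so that run does not vouch for the noisier conditions. Alternatives were other scalings, filters, tools, pseudocounts, blocks, sets of libraries and thresholds. The fit without the “Riesling” summer libraries labelled E-L 38 was chosen after seeing the data.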

Additional observations from a re-analysis of the deposited data

Results flagged for a closer look

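The season effect differed between the cultivars by the interaction in edgeR's quasi-likelihood fit for 4 values of the members, “Riesling” minus “CS”. At E-L 36, where the seasons of both cultivars also differed in the score of ripening, the difference was -0.99 for VIT_218s0001g12800 (adjusted p = 0.0022) and 5.12 for VIT_202s0025g01260 (adjusted p = 1.7e-04). At E-L 38, where the “Riesling” summer libraries stood apart on the score of ripening, it was -1.36 for VIT_219s0014g04980 (adjusted p = 2.5e-04) and -5.36 for VIT_215s0048g01000 (adjusted p = 6.7e-09).

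In 4 further cases all winter libraries lay on one side of the summer libraries at one stage and on the other side at another stage of the same cultivar. These differences between stages were not tested. For VIT_219s0014g04980 in “Riesling”, the season log2 fold change at E-L 36 minus that at E-L 35 was 2.52, and that at E-L 38 minus that at E-L 36 was -3.65. For VIT_216s0039g02350 in “CS”, the value at E-L 38 minus that at E-L 36 was -2.47, and minus that at E-L 35 it was -1.53.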

How the results depend on the processing

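Of the 138 values (6 members in 23 comparisons), 51 were called, and 0 of the 46 reversals over all alternatives concerned a called value. Relative to the reported value, DESeq2 kept 135 of 138 calls, DESeq2 size factors, upper-quartile scaling and no filter 137 each, and limma on log2(FPKM + 1) 124, with 6 values of the opposite sign, 3 gained and 5 lost calls. Limma also moved the median of all genes, by -0.11 to 0.12 with a pseudocount of 1 and by -0.15 to 0.16 with 0.1. The causes of the changes below were not tested.

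The count for the season in “Riesling” at E-L 36 was 1 under DESeq2 size factors, upper-quartile scaling, no filter, DESeq2 and the fit of its own libraries. The season difference between cultivars at E-L 35 was called for 1 member by DESeq2. Under limma on log2(FPKM + 1), with and without a filter, the count was 1 for the season difference at E-L 36, 2 for the cultivars in summer at E-L 36, 1 for “CS” winter E-L 36 over E-L 35 and 0 for “CS” summer E-L 38 over E-L 36, and with a pseudocount of 0.1 it was 2 for the cultivars in summer at E-L 36. With only the libraries of the comparison, the count was 0 for the season in “Riesling” at E-L 35, for the cultivars in summer at E-L 35 and for “Riesling” summer E-L 36 over E-L 35. With an adjusted p of 0.05 and no fold limit, it was 4 for the season in “Riesling” at the first stage, 3 at the middle stage, 6 for that in “CS” at E-L 38, 1 for the season difference at E-L 35, 2 for the cultivars in winter at the first stage, 3 at the last, 4, 3 and 4 in summer at the 3 stages, 4 for “CS” winter E-L 36 over E-L 35 and 5 for “Riesling” summer E-L 38 over E-L 36. The share of all genes that passed this limit is not given here. It cannot exceed the share with an unadjusted p under 0.05 in edgeR, which is a looser limit. Among all genes, that share was 20.1% for the season difference at E-L 35 and 54.6% for the season in “CS” at E-L 38. The other comparisons of this setting lay between these shares.

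With the replicate number as a block, 136 of 138 values kept their call. VIT_218s0001g12800 was called for the season in “Riesling” at E-L 36 (1.00), so that count was 1, and VIT_216s0039g02350 for “Riesling” summer E-L 38 over E-L 36 (-1.01). The comparison whose libraries paired by number, “Riesling” summer E-L 36 over E-L 35, changed no call.

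The sign turned for values near 0. Under limma with a pseudocount of 1 (with or without a filter) and of 0.1, VIT_215s0048g01010 was -0.0061 and -0.0036 for the season in “CS” at E-L 36, 0.013 and 0.024 for the cultivars in winter at E-L 38, and -0.099 and -0.107 for “Riesling” winter E-L 36 over E-L 35. VIT_202s0025g01260 was -0.0082 and -0.021 for the season in “Riesling” at E-L 36, and 0.0084 and 0.021 for “CS” winter E-L 38 over E-L 36. VIT_219s0014g04980 was 0.067 and 0.068 for the cultivars in winter at E-L 36. The summed tandem copies gave 0.12 for the cultivars in winter at E-L 36 and -0.65 for “CS” summer E-L 36 over E-L 35.

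Leaving out each library in turn (36 fits) kept 882 of 936 values, with 9 lost calls, 19 gained calls and 26 changes of sign in 17 results. No season call was lost. The season counts ranged over 2 to 3, 0 to 1 and 5 to 5 in “Riesling” and 4 to 4, 4 to 4 and 3 to 3 in “CS”, and those of the season difference over 0 to 1, 2 to 2 and 2 to 3. The cultivar counts ranged over 1 to 2, 3 to 3 and 1 to 1 in winter and 2 to 2, 1 to 2 and 1 to 2 in summer. For E-L 36 over E-L 35 they ranged over 1 to 2 in “Riesling” winter, 1 to 4 in “Riesling” summer, 2 to 3 in “CS” winter and 1 to 2 in “CS” summer berries, and for E-L 38 over E-L 36 over 5 to 5, 2 to 3, 3 to 3 and 0 to 1. The values that changed sign ranged from -0.010 to 0.13 (VIT_215s0048g01010) for the season in “CS” at E-L 35, from -0.049 to 0.36 (VIT_202s0025g01260) for the season in “Riesling” at E-L 36 and from -0.18 to 0.73 (VIT_216s0039g02350) for the season difference at E-L 38. Between cultivars they ranged from -0.14 to 0.26 (VIT_219s0014g04980, summer E-L 35), -0.058 to 0.41 (VIT_215s0048g01000, summer E-L 36), -0.25 to 0.25 (VIT_215s0048g01000, winter E-L 35), -0.27 to 0.040 (VIT_219s0014g04980, winter E-L 36), -0.11 to 0.40 (VIT_216s0039g02350, winter E-L 36), -2.46 to 3.02 (VIT_202s0025g01260, winter E-L 38) and -0.15 to 0.23 (VIT_215s0048g01010, winter E-L 38). Between stages they ranged from -0.11 to 0.24 (VIT_215s0048g01000) for “CS” summer E-L 36 over E-L 35, -3.09 to 0.43 (VIT_202s0025g01260) and -0.060 to 0.32 (VIT_215s0048g01010) for “CS” winter E-L 38 over E-L 36, -0.012 to 0.22 (VIT_218s0001g12800) and -0.049 to 0.26 (VIT_216s0039g02350) for “Riesling” summer E-L 36 over E-L 35, -0.087 to 0.10 (VIT_218s0001g12800) for “Riesling” summer E-L 38 over E-L 36, and -0.070 to 0.17 (VIT_215s0048g01010) for “Riesling” winter E-L 36 over E-L 35.

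The depth limits VIT_202s0025g01260 most, since 3 conditions had at most 2 counts in any library and its fitted values there depend on single reads.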
